A study of Mus musculus with 17 samples.

Results

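In mouse 416B cells, a myeloid progenitor line, 1314 RUNX1 binding sites were called by every RUNX1 library made without the leukaemia fusion protein and by exactly 1 of the 2 libraries made with it. They were chosen by merging the RUNX1 peaks of 8 libraries where they overlapped by 1 bp or more. A merged site was taken when all 6 libraries without induced fusion called it and when only 1 fusion library still did. The 1314 sites were 6.07% of the 21664 merged RUNX1 sites and 15.4% of the 8531 sites called in all 6 libraries. Of the remainder of those 8531, 4833 were called in both fusion libraries (kept in both) and 2384 in neither (lost in both). The RUNX1 calls of the 8 libraries chose the sites, so RUNX1 calls and scores are given as descriptions and carry no test. CHD7, measured with another antibody in 8 other libraries, was not used to choose them. The labels do not say whether RUNX1 and CHD7 libraries of the same replicate number came from the same chromatin.

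Binding was measured in 4 conditions by chromatin immunoprecipitation and sequencing, with 2 replicates for each antibody. CM +Dox cells carried a doxycycline-inducible cDNA of the fusion Cbfb-Myh11 (CM), joined through an F2A peptide to the fluorescent protein mCherry, and received 1 ug/ml doxycycline for 24 hours. CM -Dox cells carried the same construct and received no doxycycline. Control +Dox and Control -Dox cells carried the vector without the fusion, with and without the drug. All cells carried the doxycycline-responsive repressor and activator of the system (tTS and rtTA), and were clones grown from single sorted cells under blasticidin selection. The fusion was thus a transgene in a cultured line and not the rearranged chromosome of a leukaemia. The labels do not say whether replicates were separate cultures, so each p-value reflects the spread of these libraries alone, and that spread may be technical. The RUNX1 lists held 8140 and 9710 peaks in CM +Dox and 12603 to 16163 peaks in the other 6 libraries. The CHD7 lists held 16323 to 37698 peaks. Read depth is unknown, and the lists end at different p-value thresholds: 1e-07 for the CM +Dox RUNX1 list of replicate 1 and 1e-09 for that of replicate 2. In 1 list, labelled Control -Dox RUNX1 replicate 1, the names of the peaks are tagged +Dox. This library was kept as labelled, and leaving it out gave 1356 sites in place of 1314. As a check of the labels, the bodies of Cbfb and Myh11 together held 7 and 7 RUNX1 peaks in CM +Dox, 4 and 1 in CM -Dox, and 0 in each of the 4 control libraries.

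RUNX1 binds DNA through its Runt domain as a dimer with CBFB, which does not touch DNA itself and strengthens the binding. The CBFB-MYH11 fusion of acute myeloid leukaemia with inversion of chromosome 16 joins most of CBFB to the tail of a smooth muscle myosin, and it still binds RUNX1. CHD7 is an ATP-dependent remodeller that moves nucleosomes at enhancers and promoters. In progenitor cells RUNX1 shares many sites with ETS factors such as FLI1 and ERG and with GATA factors, and the DNA letters searched below come from these families.

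The sites can be read in sequence only where a RefSeq promoter window (250 bases before to 50 after a transcript start, build GRCm38.p6, which mm10 denotes) overlapped one. Such a window overlapped a site kept in 1 CM +Dox library for 266 genes. The first 4 sequences are the promoters of the highest-ranked of these sites. Then follow Egr2 and Ccnd3, list genes whose promoter holds a RUNX motif, and Cdk1, a list gene whose promoter holds none of the motifs searched. The promoters of the list genes Rpl10a, Plek, Rps15, Etv6, Junb and Rpl4, not printed, also overlapped a site and held no RUNX motif. The printed set is thus richer in RUNX motifs than the windows at these sites, of which 33.4% held one. Each printed promoter is given 5′ to 3′ on the strand of its gene. Capitals mark TGTGGT or TGCGGT, the RUNX letters searched, or their reverse complements ACCACA and ACCGCA.
Havcr2: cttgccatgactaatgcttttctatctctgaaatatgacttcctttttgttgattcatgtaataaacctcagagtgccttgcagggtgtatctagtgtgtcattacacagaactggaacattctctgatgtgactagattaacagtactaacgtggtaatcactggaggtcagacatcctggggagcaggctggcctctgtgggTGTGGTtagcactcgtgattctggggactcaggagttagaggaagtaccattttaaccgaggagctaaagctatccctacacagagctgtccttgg
Lpar5: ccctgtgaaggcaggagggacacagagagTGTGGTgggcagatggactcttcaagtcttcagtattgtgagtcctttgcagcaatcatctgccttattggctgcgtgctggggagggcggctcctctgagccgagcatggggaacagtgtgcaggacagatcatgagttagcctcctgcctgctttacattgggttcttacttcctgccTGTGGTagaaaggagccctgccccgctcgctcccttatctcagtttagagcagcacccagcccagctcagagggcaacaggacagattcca
F2r: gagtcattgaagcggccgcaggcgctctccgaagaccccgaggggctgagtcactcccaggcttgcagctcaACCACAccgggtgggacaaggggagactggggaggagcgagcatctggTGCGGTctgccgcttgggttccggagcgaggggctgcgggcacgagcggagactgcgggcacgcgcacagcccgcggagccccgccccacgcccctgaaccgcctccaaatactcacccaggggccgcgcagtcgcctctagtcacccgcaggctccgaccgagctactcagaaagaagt
Zkscan4: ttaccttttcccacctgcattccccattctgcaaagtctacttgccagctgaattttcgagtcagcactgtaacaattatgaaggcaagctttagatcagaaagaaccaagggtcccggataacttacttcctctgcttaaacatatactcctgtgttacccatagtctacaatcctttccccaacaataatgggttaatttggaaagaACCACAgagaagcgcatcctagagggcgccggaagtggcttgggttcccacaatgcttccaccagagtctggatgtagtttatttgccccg
Egr2: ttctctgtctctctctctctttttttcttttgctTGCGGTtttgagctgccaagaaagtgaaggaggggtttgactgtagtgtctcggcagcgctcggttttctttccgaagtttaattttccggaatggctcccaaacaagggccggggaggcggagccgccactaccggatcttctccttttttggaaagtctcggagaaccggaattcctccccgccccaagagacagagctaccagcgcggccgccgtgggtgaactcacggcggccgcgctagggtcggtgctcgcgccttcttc
Ccnd3: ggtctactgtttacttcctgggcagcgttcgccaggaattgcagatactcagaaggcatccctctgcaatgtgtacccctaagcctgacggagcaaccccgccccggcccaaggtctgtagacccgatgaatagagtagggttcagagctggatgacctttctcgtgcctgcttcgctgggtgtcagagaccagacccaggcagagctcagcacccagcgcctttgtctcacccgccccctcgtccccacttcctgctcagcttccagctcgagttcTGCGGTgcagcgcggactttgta
Cdk1: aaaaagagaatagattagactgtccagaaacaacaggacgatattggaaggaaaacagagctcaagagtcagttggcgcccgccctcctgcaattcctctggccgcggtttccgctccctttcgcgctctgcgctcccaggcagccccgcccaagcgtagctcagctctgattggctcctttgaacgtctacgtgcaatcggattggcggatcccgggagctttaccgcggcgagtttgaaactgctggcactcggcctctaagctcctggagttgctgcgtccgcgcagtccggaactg

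The window of Havcr2, an inhibitory receptor of T cells and myeloid cells, is chr11:46454681-46454980 on the plus strand. Its site was kept in CM +Dox replicate 2, and the 1 RUNX motif of the window lay inside the site. Lpar5, a receptor for lysophosphatidic acid, lies at chr6:125071085-125071384, plus strand. The Lpar5 site was kept in replicate 2 and covered 1 of the 2 motifs. F2r, the thrombin receptor of platelets and other cells, lies at chr13:95618417-95618716, minus strand. Its site was kept in replicate 1 and covered both motifs, which stand in opposite orientations. Zkscan4, a zinc-finger gene, lies at chr13:21478599-21478898, plus strand, and its site was kept in replicate 1 with its motif. Egr2, an immediate-early zinc-finger transcription factor of macrophages and other cells, lies at chr10:67537316-67537615, plus strand. Ccnd3, a D-type cyclin, lies at chr17:47504801-47505100, plus strand. Both of these sites were kept in replicate 2. Cdk1, the kinase that drives entry into mitosis, lies at chr10:69352863-69353162, minus strand, and its site was kept in replicate 1.

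Most of the sites were kept in replicate 2. CM +Dox replicate 1 kept 272 of the 1314 (20.7%, Wilson 95% interval 18.6% to 23.0%) and replicate 2 kept 1042 (79.3%, 77.0% to 81.4%). These intervals and those below cover counting error only. The list of replicate 2 was the longer of the pair, although it ended at the stricter threshold. When every RUNX1 list was shortened to its 8140 highest-scoring peaks, and every CHD7 list to 16323, 589 sites met the rule, 527 of them among the 1314, and 28.5% of the 589 were kept in replicate 1. When only peaks that reached the median score pooled over their antibody were used, 945 sites met the rule, 142 of them among the 1314, and 1.90% of the 945 were kept in replicate 1. With a common RUNX1 threshold of 9 on the −log10 p scale, 1311 sites met the rule, 1275 of them among the 1314. The median cut and the common threshold set scores of different lists side by side, though these cannot be assumed to share a scale. The kept sites had a median score of 14.0 in CM +Dox replicate 1 and 23.6 in replicate 2.

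A call in only 1 replicate of a pair also occurred without the fusion. The same rule was put to each of the other pairs, among the sites called in the remaining 4 libraries without CM. In CM +Dox, 1314 of 8531 sites (15.4%) were called in exactly 1 replicate and 27.9% in neither. In CM -Dox it was 533 of 9493 sites (5.61%), with 4.52% in neither. Control +Dox had 967 of 9633 (10.04%) in exactly 1 replicate and 1.40% in neither. Control -Dox had 433 of 9003 (4.81%) in exactly 1 and 0.433% in neither. In the other 3 pairs more sites were called in 1 replicate than in neither, and in CM +Dox fewer. These counts rest on the calls that chose the sites, and the CM +Dox pair was set against 6 other libraries while the other pairs were set against 4.

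**Figure D1:**
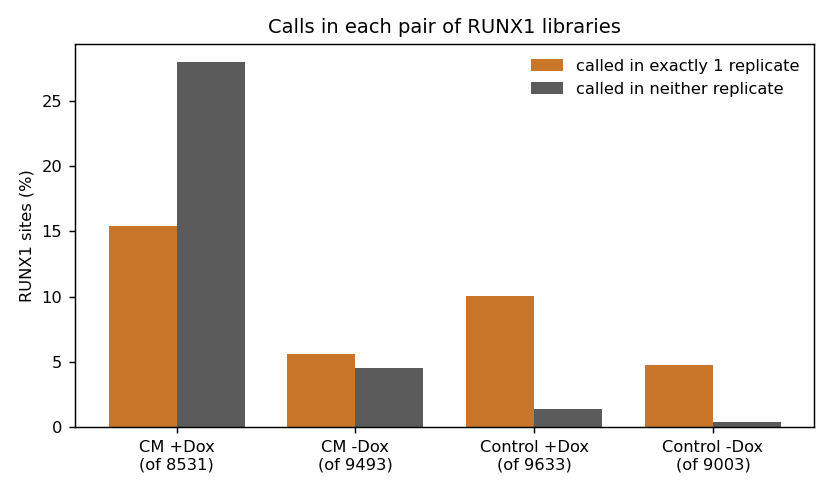
Percentage of RUNX1 sites (vertical axis) called in exactly 1 replicate (orange) or in neither replicate (dark grey) of each condition's pair of libraries, among sites called in all other libraries without CM; the number of sites is under each pair. In CM +Dox 15.4% of 8531 sites were called in 1 replicate and 27.9% in neither, while neither was the rarer outcome in the other 3 pairs.

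The sites held middling ranks without the fusion and low ranks in the CM +Dox library that kept them. Rank here is the percentile of a peak's deposited score within its own list, with 100 the highest. It was used because scores of different lists cannot be assumed to share a scale. Rank depends on list length, since a peak at the same place from the top ranks lower in a shorter list. The CM +Dox lists were the shorter, with 8140 and 9710 peaks against 12603 to 16163. How much of a lower CM +Dox rank comes from length was not tested, here or for the sites named below. In CM +Dox replicate 1 the 272 sites it kept had a median rank of 19.8 (quartiles 9.33 and 31.1), and in replicate 2 the 1042 sites it kept had 31.6 (16.4 and 47.6). Across the 6 libraries without CM the median rank of all 1314 sites was 56.3 in the lowest library, 58.5 in the median and 65.4 in the highest. The CM +Dox rank was below the site's mean rank without CM at 242 of the 272 sites (89.0%) and at 873 of the 1042 (83.8%). Sites kept in both libraries had median ranks of 64.8 and 72.3 in the same CM +Dox lists, against 69.0 to 76.7 in the 6 libraries without CM. They lay below their mean rank without CM in 59.8% of cases in CM +Dox replicate 1 and 49.2% in replicate 2.

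The kept peaks lay nearer to the edge of their list than those of sites kept in both, though few were at the threshold itself. Of the 272 peaks kept in CM +Dox replicate 1, 19 (6.99%) scored within 2 of that list's threshold of 7 on the −log10 p scale, as did 7 of the 1042 in replicate 2 (0.672%), where the threshold was 9. For sites kept in both it was 0.786% in replicate 1 and 0.124% in replicate 2. In the upper part of their list, above rank 50, lay 16 of the 272 (5.88%) and 233 of the 1042 (22.4%), against 66.1% and 75.7% of the sites kept in both. The other CM +Dox library had a peak within 500 bp, without overlap, at 9 of the 272 sites and at 31 of the 1042. Just outside the rule lay 1933 sites called in 5 of the 6 libraries without CM. Of those, 375 (19.4%) were called in exactly 1 CM +Dox library, 88 in replicate 1 and 287 in replicate 2.

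**Figure D2:**
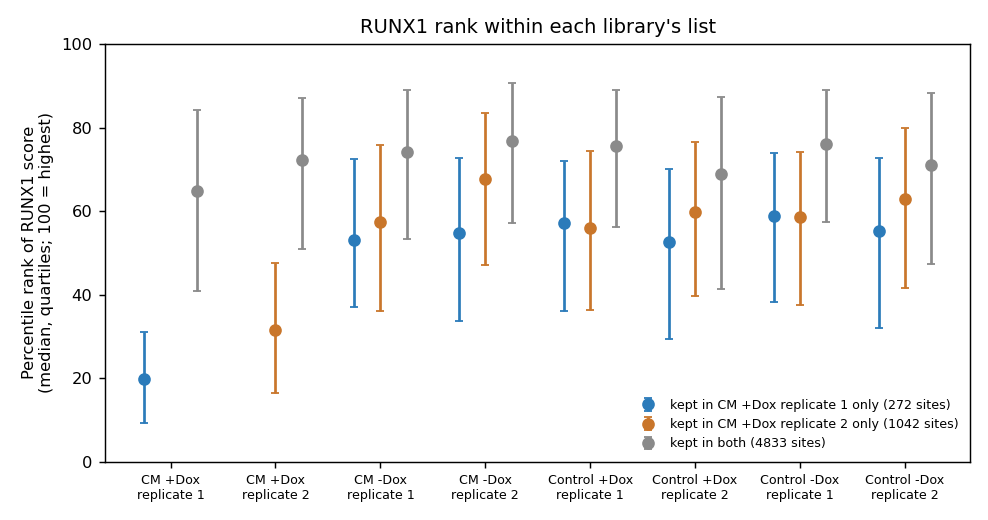
Percentile rank of the RUNX1 score within each library's own list (vertical axis, 100 the highest; points are medians over sites, bars are quartiles) for sites kept in CM +Dox replicate 1 only (blue, 272), in replicate 2 only (orange, 1042) and in both (grey, 4833). Medians of 19.8 and 31.6 in the CM +Dox library that kept the sites lie under those of the same sites in all 6 libraries without CM, whose lists are longer.

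By rank without CM the sites lay close to the lost ones and below those kept in both. The median over sites of the mean rank in the 6 libraries was 57.0 for sites kept in 1 library (53.7 for replicate 1, 58.2 for replicate 2), 71.7 for sites kept in both and 57.6 for sites lost in both. When the 8531 sites were divided into quintiles by this mean rank, the share kept in exactly 1 library was 21.5% in the lowest quintile, 18.1%, 16.1% and 14.4% in the middle ones and 6.92% in the highest. The share lost in both was 35.0% in the lowest quintile and 14.0% in the highest. The merged sites had a median width of 413 bp, against 504 bp for sites kept in both and 367 bp for sites lost in both. Width grows with the number of peaks merged into a site.

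**Figure D3:**
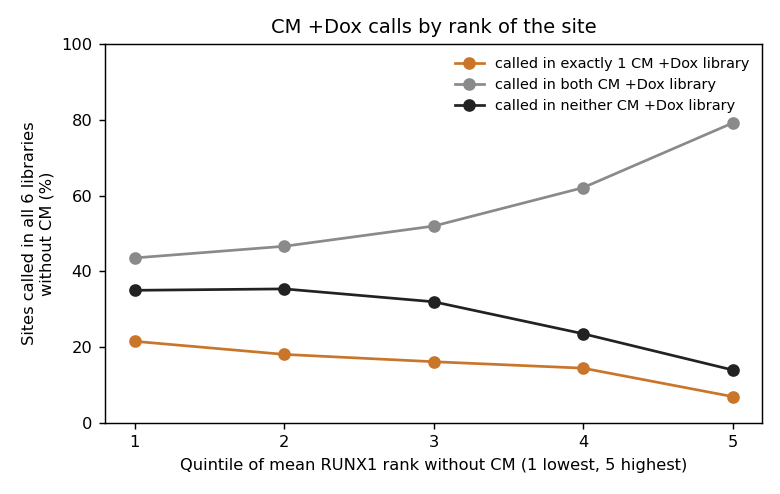
Share of RUNX1 sites called in exactly 1 (orange), both (light grey) or neither (black) CM +Dox library, by quintile of mean rank without CM (horizontal axis, 1 the lowest). The share called in exactly 1 library is 21.5% in the lowest quintile and 6.92% in the highest, where 79.1% were called in both.

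The highest-ranked sites kept in replicate 1 show how far a site could differ between the libraries. A site at chr3:114889701-114890296, 13.8 kb from Olfm3, which encodes a secreted olfactomedin protein, had a rank of 66.3 in CM +Dox replicate 1, and replicate 2 did not call it. In the 6 libraries without CM its rank lay between 99.98 and 100. A site inside Prkca, the alpha isoform of protein kinase C (chr11:108148318-108148985), had a rank of 63.4 in CM +Dox replicate 1 and ranks of 99.4, 99.6 and 99.8 in the lowest, median and highest library without CM. Inside Nrip1, a corepressor of nuclear receptors (chr16:76323576-76324274), the rank was 26.4 in CM +Dox replicate 1, against 93.1, 97.4 and 98.3 without CM. Inside Kdm6a, a histone demethylase that removes a Polycomb mark (chrX:18179523-18179912), it was 31.1, against 88.00, 94.96 and 97.5. All 4 sites ranked lower in the CM +Dox library than in any library without CM. They were picked for high ranks without CM and a missing call in replicate 2, so the choice itself favours a lower CM +Dox rank. The same limit holds for the sites kept in replicate 2 that are named below. The other 4 of the 8 highest-ranked lay in Zcwpw2, Dcaf7 and Slc24a4 and beside Map3k2, with CM +Dox ranks between 1.83 and 35.1.

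Among the sites kept in replicate 2, the 8 highest-ranked also ranged widely in the rank they kept. A site in Ripor1, an inhibitor of the GTPase RhoA (chr8:105609294-105609840), had a rank of 3.77 in CM +Dox replicate 2, against 99.3, 99.5 and 99.7 in the lowest, median and highest library without CM. A site in Tulp3, a protein of cilium transport (chr6:128345570-128346081), had 4.73, against 96.2, 97.0 and 99.3. Both were near the bottom of the list that kept them and near the top of the others. The other 6 kept ranks of 58.9 to 76.8. They lay in Epg5, an autophagy gene, and Pcdh7, a protocadherin, and outside genes at 4.77 kb from Gramd1a, 7.66 kb from Tg, 113 kb from Haao and 662 kb from Gm4868. Iqgap2, a scaffold protein that binds actin, was the single gene with 4 sites in its body or within 5 kb, all kept in replicate 2, with 2 further sites kept in both and 2 lost. Its highest-ranked site (chr13:95657031-95657534) had a rank of 15.6 in CM +Dox replicate 2, against 89.8, 96.8 and 98.5 without CM.

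The sites were more often distal than those kept in both. Of the 1314, 326 (24.8%, 22.6% to 27.2%) lay within 1 kb of either end of a protein-coding gene, against 39.6% of sites kept in both and 15.3% of sites lost in both. Among all 8531 sites it was 30.5%. The subsets differed: 39.0% (33.4% to 44.9%) of the 272 sites kept in replicate 1 lay at a gene end and 21.1% (18.7% to 23.7%) of the 1042 kept in replicate 2. The gene table has no strand or exons, so promoters and gene 3' ends, and exons, introns and UTRs, were not separated. Inside a gene lay 865 of the 1314 (65.8%), and over 50 kb from any lay 112 (8.52%), close to the 65.9% and 9.08% of all 8531 sites. Gene-end sites had lower ranks: among the sites kept in 1 library the gene-end share was 43.6% in the lowest quintile of rank and 6.78% in the highest. In each of the 5 quintiles it was above the share of lost sites and below that of sites kept in both. With lists of equal length the gene-end share was 15.6%. Another site called in all 6 libraries lay within 10 kb of 418 of the 1314 sites (31.8%), against 29.5% of sites kept in both and 26.3% of lost sites. Of these nearest neighbours 57.2% were kept in both CM +Dox libraries, close to the 56.7% of all 8531 sites.

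CHD7 was about as frequent at these sites as over all 8531 sites called in the 6 libraries, and no difference with the fusion passed 0.05 after adjustment. It was called at 42.5% and 58.4% of the 1314 sites in CM +Dox, at 53.7% and 74.0% in CM -Dox, at 51.7% and 59.4% in Control +Dox and at 48.7% and 65.7% in Control -Dox. Over all 8531 sites the shares were 42.6% and 55.6% in CM +Dox and 48.7% to 69.3% in the 6 libraries without CM. At the 1314 sites the CM +Dox values overlap the range of the others, and replicate 1 of CM +Dox was the lowest of all 8. The mean was 50.5% ± 11.2 in CM +Dox and 58.9% ± 9.58 without CM (SD, n = 2 and 6), a difference of -8.40 percentage points, with -8.80 within replicate 1 and -7.99 within replicate 2. Over all 8531 sites the means were 49.1% ± 9.16 and 57.1% ± 8.10, so the lower CM +Dox mean was not particular to the 1314. Replicate 2 had the higher share in all 4 conditions. Exact permutation of the library labels, two-sided and over 28 choices of 2 libraries, gave p = 0.321, or 0.536 after Benjamini-Hochberg adjustment over the 5 tests made. The smallest p this design allows is 0.0357. Without CHD7 CM +Dox replicate 1 the difference was -0.48 points, and without replicate 2 it was -16.3. With lists of equal length it was -23.9 points (exact p = 0.0357), for the 589 sites of that setting. Of those 589 sites 15.6% lay within 1 kb of a gene end. The difference over all sites called in the 6 libraries was not computed in that setting, so whether it is particular to the 589 was not tested.

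**Figure D4:**
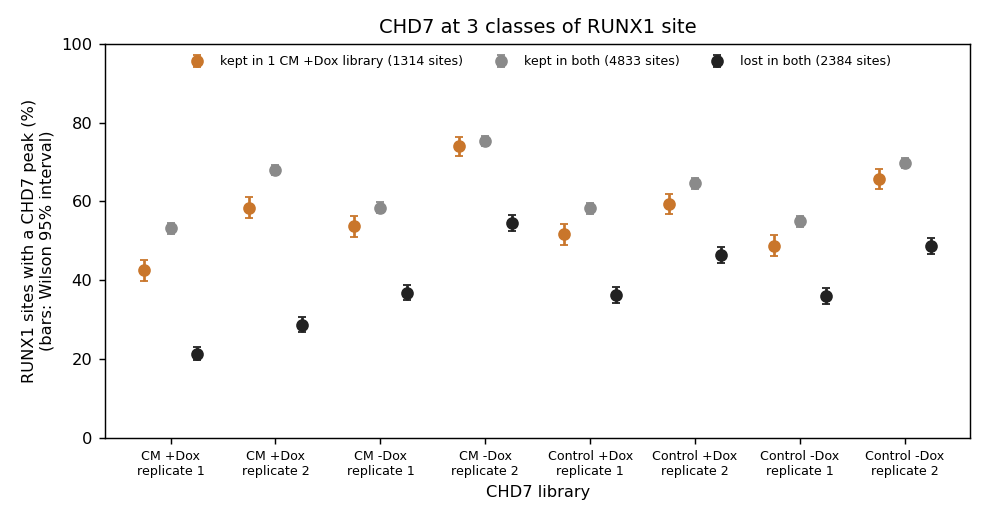
Percentage of RUNX1 sites with a CHD7 peak in each of the 8 CHD7 libraries (horizontal axis), for sites kept in 1 CM +Dox library (orange), kept in both (grey) and lost in both (black), with Wilson 95% intervals as bars. In every library the sites kept in 1 library lie under those kept in both and above those lost in both.

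Relative to the other classes of RUNX1 site, CHD7 at the sites kept in 1 library was intermediate in all 8 CHD7 libraries over all positions. At sites kept in both the mean was 60.6% ± 10.5 in CM +Dox and 63.5% ± 7.86 without CM, and at sites lost in both it was 24.98% ± 5.31 and 43.1% ± 7.90. Within 1 kb of a gene end the order against sites kept in both turned in all 8 libraries. There CHD7 was called at 50.3% and 65.6% of the sites kept in 1 library in CM +Dox, against 49.6% and 65.3% of the sites kept in both, and the means without CM were 60.4% ± 7.51 and 55.3% ± 7.90. By quintile of rank, the mean without CM was higher at sites kept in 1 library than at sites kept in both in 2 of 5 quintiles, and the CM +Dox mean in 0 of 5. Against sites kept in both, the log2 odds ratio of a CHD7 call was -0.62 and -0.60 in CM +Dox, and -0.38 in the lowest, -0.30 in the median and -0.10 in the highest library without CM. The 2 groups of libraries do not overlap. The means were -0.61 ± 0.01 in CM +Dox and -0.29 ± 0.10 without CM, a difference of -0.32 (exact permutation p = 0.0357, the smallest possible, adjusted p = 0.0893). Against sites lost in both, the log2 odds ratio was 1.46 and 1.80 in CM +Dox, and 0.76, 0.95 and 1.25 in the lowest, median and highest library without CM. The means were 1.63 ± 0.24 and 0.95 ± 0.18, a difference of 0.68 (exact permutation p = 0.0357, adjusted p = 0.0893). Neither difference passed 0.05 after adjustment. The classes were set by RUNX1 calls in CM +Dox, and the permutation kept them fixed while CHD7 library labels were exchanged. Whether another condition would stand apart if its own RUNX1 calls set the classes was not tested. The p-values therefore cannot separate the fusion from this choice of classes. Within replicate 1 the differences were -0.28 against kept sites and 0.57 against lost sites, and within replicate 2 they were -0.37 and 0.79. The odds ratio was used because the CHD7 lists differ in length, and the classes compared also differ in rank and in gene-end share, as given above.

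**Figure D5:**
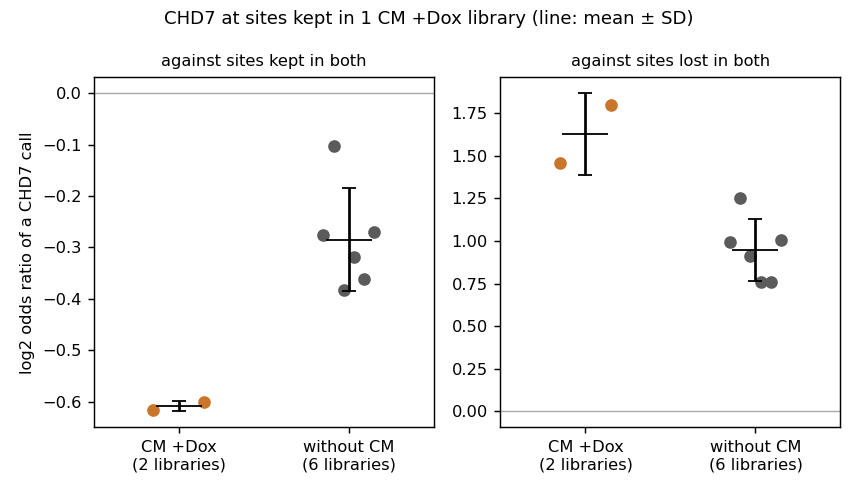
Log2 odds ratio of a CHD7 call at sites kept in 1 CM +Dox library against sites kept in both (left) and against sites lost in both (right), 1 point per CHD7 library, with mean and SD; CM +Dox in orange, libraries without CM in grey. The CM +Dox points lie outside the range of the 6 others in both panels; the classes were set by RUNX1 calls in CM +Dox.

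Doxycycline alone was checked through the controls. The difference of CM +Dox minus CM -Dox less that of Control +Dox minus Control -Dox was -11.7 percentage points of sites with CHD7. An exact permutation of the drug labels within each construct gave p = 0.556 over 36 splits (adjusted p = 0.694), where the smallest possible is 0.0556.

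The CM +Dox difference in CHD7 was uneven over the ranks of the sites, a pattern chosen after the values were seen and not tested. At the 118 sites of the highest quintile of rank, CHD7 was called at 19.5% and 33.9% in CM +Dox, and at 57.6% in the lowest, 69.5% in the median and 82.2% in the highest library without CM. The means were 26.7% ± 10.2 in CM +Dox and 69.5% ± 8.79 without CM. At the 367 sites of the lowest quintile they were 62.8% ± 10.98 and 62.3% ± 9.05. In the highest quintile, sites kept in both had means of 59.5% in CM +Dox and 75.9% without CM, and sites lost in both had 12.8% and 52.7%. Gene-end sites were common in the low quintiles, as given above. At sites within 1 kb of a gene end the means were 58.0% ± 10.8 in CM +Dox and 60.4% ± 7.51 without CM, and at the other sites they were 48.0% ± 11.3 and 58.3% ± 10.5. The split was not particular to these sites. Over all 8531 sites the means were 55.97% in CM +Dox and 55.5% without CM at gene ends and 46.04% and 57.8% elsewhere, and at lost sites away from gene ends they were 21.1% and 41.5%.

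Site by site, CHD7 calls varied between libraries. CHD7 was called in all 8 libraries at 275 of the 1314 sites (20.9%), against 23.8% of all 8531 sites, and in none at 159 (12.1%, against 15%). Most sites, 758 (57.7%, against 52.5%), had CHD7 in 1 to 5 of the 6 libraries without CM. At 376 sites (28.6%, against 30.7%) all 6 libraries without CM called CHD7. Of these 376, 75.8% kept the call in CM +Dox replicate 1 and 89.1% in replicate 2, against 85.0% and 94.2% at sites kept in both and 63.6% and 74.3% at sites lost in both. CHD7 in all 6 and in neither CM +Dox library was found at 31 sites (2.36%, against 2.05%), and in all 6 and 1 CM +Dox library at 70 (5.33%, against 4.85%), shares close to the background. The 31 included the sites near Olfm3 and Tg and in Ripor1, Epg5 and Tulp3, while the site 662 kb from Gm4868 and sites in Cdkal1 and Vps45 had CHD7 in all 8. No site had CHD7 in both CM +Dox libraries and in none of the 6 others (0 of 1314, upper bound 0.291%, against 0.199%).

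CHD7 also differed between the sites kept in either library. It was more frequent at the sites kept in RUNX1 replicate 1 than at those kept in replicate 2 in all 8 CHD7 libraries. The excess was 9.40 and 9.38 percentage points in CM +Dox, and 6.28 in the lowest, 7.19 in the median and 16.004 in the highest library without CM. Its means were 9.39 ± 0.0185 in CM +Dox and 8.85 ± 3.66 without CM, a difference of 0.54 points (exact permutation p = 1, adjusted p = 1). With scores at or above the pooled median this difference was -13.3 points, on the few sites then kept in replicate 1.

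At the level of genes, 1084 of 21883 protein-coding genes (4.95%) had at least 1 of the sites in the body or within 5 kb, which is 19.6% of the 5533 genes with any site called in all 6 libraries. Of the 1084 genes, 996 had 1 such site, 78 had 2 and 9 had 3. For 591 the sites kept in 1 library were the only ones called in all 6, while 386 also had a site kept in both and 211 a lost site. A nearby site does not show that the gene is regulated by it. Counts below are set beside the 15.4% of all such sites that were kept in exactly 1 library. Ranks below carry the limits of list length and of naming by rank without CM given above.

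Genes of haematopoietic stem and progenitor transcription factors held 10 of the sites among their 51 called in all 6 libraries, with 32 kept in both and 9 lost, and 9 of the 25 listed genes had at least 1. Meis1, a homeobox factor of stem cells and leukaemia, had the highest-ranked (chr11:18969952-18970833, intragenic), with a rank of 19.6 in CM +Dox replicate 2, against 74.3, 84.1 and 88.9 in the lowest, median and highest library without CM. Fli1, an ETS factor, held a pair of intragenic sites (chr9:32509779-32510156 and chr9:32539230-32539583), both kept in replicate 2, with ranks of 16.7 and 34.5 in CM +Dox and medians of 71.1 and 68.5 without CM. At the site in Erg, another ETS factor (chr16:95434543-95434923), replicate 1 kept a rank of 12.8, against a median of 66.8 without CM, and CHD7 was called in both CM +Dox libraries. At Cbfa2t3, a corepressor of the ETO family, replicate 1 kept a rank of 54.7, against a median of 66.1. All 5 of these sites ranked lower in CM +Dox than their median without CM, but they were named for a high rank without CM. Of all sites, 89.0% of those kept in replicate 1 and 83.8% of those kept in replicate 2 ranked below their mean without CM. Gata2, Tal1, Etv6 and Mecom each held 1 site too and are named after their values were seen. At Gata2, a zinc-finger factor of stem cells, the order was the other way. Its rank was 65.3 in CM +Dox replicate 2, above the median of 43.4 without CM but inside the range of 19.4 to 67.9. Tal1 had 12.6 in replicate 2, against a median of 11.98. The ranks at Etv6 (2.27 in replicate 2) and Mecom (15.2 in replicate 1) were below their medians of 31.5 and 64.0.

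Runx1 itself held 1 of the sites (chr16:92696496-92696923, intragenic), with a rank of 33.1 in CM +Dox replicate 2, against 42.6, 60.3 and 64.0 without CM. Runx1 also held 5 sites kept in both and 3 lost. Chd7 held 1 (chr4:8842831-8843166), with a rank of 56.3 in CM +Dox replicate 2, against 19.1, 42.2 and 72.2 without CM, so the ranks overlapped. Chd7 had 1 lost site and none kept in both. Cbfb and Myh11 held no site called in all 6 libraries.

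Myeloid transcription factors held 4 sites of 11, with 6 kept in both and 1 lost, and all 4 were kept in replicate 2. They lay at the promoter of Egr2, at Cebpd and 4.96 kb from Cebpa, which encode C/EBP factors of granulocytes and macrophages, and at Junb, a subunit of AP-1. Egr2 had a rank of 31.8 in CM +Dox replicate 2, against 64.4, 70.7 and 87.2 without CM. Cebpd had 22.4, against 21.8, 51.1 and 66.8, and Cebpa had 20.7, against 18.4, 33.4 and 67.7. The ranks at Egr2 did not overlap between CM +Dox and the other libraries, and those at Cebpd and Cebpa did. Junb had 47.9, above all 6 libraries without CM (3.18, 25.98 and 39.1). Granule, phagocyte and myeloid surface genes held none of the sites, with 7 of their 10 sites kept in both and 3 lost. The cytokine receptor list held 2 of 20, at Jak1, the kinase of many cytokine receptors, and 0.037 kb from Il3ra, the interleukin-3 receptor alpha chain.

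Megakaryocyte, platelet and mast cell genes held 4 sites of 27, with 11 kept in both and 12 lost. F2r had a rank of 15.9 in CM +Dox replicate 1, against 75.3, 85.2 and 94.2 without CM, and no CHD7 library called its promoter. Plek, a substrate of protein kinase C in platelets, had 49.1 in CM +Dox replicate 2, against 28.2, 43.5 and 59.5, with CHD7 in all 8 libraries. The site at F2rl2, another protease-activated receptor whose annotation overlaps that of Iqgap2, and the site at Itgb3, the platelet integrin beta chain, were also kept in replicate 2. F2rl2 had a rank of 50.5 in CM +Dox replicate 2, against 5.12, 32.1 and 73.8 without CM. Itgb3 had 46.2, against 17.8, 28.5 and 79.9. Like Plek, both lay above their median without CM and inside the range.

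Cell cycle and survival genes held 4 sites of 28. Cdk1 had a rank of 36.3 in CM +Dox replicate 1, against 57.2, 71.2 and 84.1 without CM, and Ccnd3 had 46.7 in replicate 2, against 46.0, 51.8 and 68.4. No CHD7 library called either promoter. Bcl2l1, an inhibitor of apoptosis, and Cdkn1a, a cyclin-dependent kinase inhibitor, held 1 each, with medians of 23.0 and 10.7 without CM. Signalling regulators held 4 of 28, at Rgs1, a regulator of G-protein signalling, at Inpp5d, a phosphatase that opposes PI3-kinase (1 site kept in each CM +Dox library), and at Smad7. Chromatin regulators held 2 of 31, with 19 kept in both and 10 lost. The site in Kmt2a, a histone methyltransferase rearranged in leukaemia (chr9:44867724-44868061), had a rank of 15.9 in CM +Dox replicate 2, against 75.5, 86.8 and 89.5, and the other was the Chd7 site described above. Ribosomal protein genes held 5 sites of 14, with 8 kept in both and 1 lost. The site at Rpl10a had a rank of 2.51 in CM +Dox replicate 1, against 55.6, 63.9 and 76.1 without CM, while those at Rps15, Rpl3 and Rpl4 had medians of 29.6 or lower in the libraries without CM. Rpl4 was outside the naming rule and was added after its values were seen. The lymphoid list held 1 site of 2, near Cd79a but inside its neighbour Arhgef1, and the liver list had no site called in all 6 libraries.

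The DNA letters of the promoters were counted in the RefSeq windows that overlap each class, on both strands. TGTGGT or TGCGGT was found in 33.4% (28.3% to 39.0%) of the 293 windows at sites kept in 1 CM +Dox library, in 28.3% of the 1960 at sites kept in both, in 39.4% of the 269 at lost sites and in 21.6% of all 21237 windows. GGAAGT, a core of ETS binding sites, was found in 45.7% (40.1% to 51.5%), 33.8%, 32.0% and 24.8% of the same 4 sets of windows. Within the sites kept in 1 library it was 35.9% (26.8% to 46.1%) of the 92 windows kept in replicate 1 and 50.2% (43.4% to 57.1%) of the 201 kept in replicate 2. GATAA, a core of GATA sites, was found in 16.04% (12.3% to 20.7%), 13.9%, 12.3% and 22.5%. The median GC content was 59.7%, 63.7%, 58.7% and 56.3%. Several windows can belong to 1 gene. A match describes the letters and is no measure of binding.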

How the data were processed

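RUNX1 and CHD7 peak lists of 16 libraries were used; the values of 1 IgG sample were not analysed here. Reads were processed with Bowtie2 2.0.6 and MACS2 2.0.10 on build mm10, per the submitters' processing notes. The background library, read filters and depth were not given in the sources used here. Peaks were called per sample. Each peak's score, as the authors deposited it, is a −log10 p-value. The thresholds in the deposited peak names were 1e-09 in 5 RUNX1 lists, 1e-07 in 3 and 0.01 in 8 CHD7 lists.

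Autosomal peaks (chromosomes 1 to 19) and those on X and Y were merged with Python 3.11.15, NumPy 2.4.6 and pandas 2.3.3, and figures drawn with Matplotlib 3.10.9. A library called a site when its peak overlapped it by 1 bp. CHD7 tests used 1 value per library, with 0.5 added to each count of an odds ratio, and two-sided exact permutation. The classes of site, set by the RUNX1 calls, were kept fixed in the permutation. The procedure was tested on simulated data. Whether replicate numbers pair the libraries is not known. For CHD7 the overall share was higher in replicate 2 in all 4 conditions. Site-by-site deviations of the CHD7 replicates correlated at only 0.0119 to 0.0832 between conditions. Those of RUNX1 ranks, on which no test was run, correlated at 0.225 to 0.576. The RefSeq table of GRCm38.p6 gave 21883 protein-coding genes; 244 of 245 list entries matched, and promoter windows covered 17469 genes. Sites were named by mean rank without CM: the 8 highest kept in each CM +Dox library, 5 for each CHD7 pattern, up to 4 genes per list, genes with 4 or more sites, the study's own genes and the promoters printed. A gene that the rule names is not reported here. The sites and the gene lists were chosen with earlier results of these data known. Alternatives were a common threshold, scores at or above the pooled median, equal list length, other overlaps and merging, a replicate block and leaving out each library.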

Additional observations from a re-analysis of the deposited data

Results flagged for a closer look

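In Control -Dox CHD7 replicate 1, CHD7 was 16.004 percentage points more frequent at sites kept in RUNX1 CM +Dox replicate 1 than at those kept in replicate 2, which stood apart from the other 5 libraries without CM. Of 10 values examined for a library apart, 1 stood apart, and chance flags about 1 in 20 groups.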

How the results depend on the processing

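The number of sites was 1331 to 1418 when a RUNX1 library without CM was left out and 589 with equal list length. The share kept in replicate 1 was 20.3% to 21.5% with a library left out, 1.90% with scores at or above the pooled median and 28.5% with equal list length. The gene-end share was 39.4% with a 5 kb window and 15.6% with equal list length. The difference in CHD7 share ranged over -16.3 to -0.48 points with a library left out and was -23.9 with equal list length (exact p = 0.0357). The equal-length value was not set beside all sites called in the 6 libraries. With a replicate block the difference in CHD7 share stayed at -8.40 points (exact permutation p = 0.125). With a replicate block, the log2 odds differences stayed at -0.32 against kept and 0.68 against lost sites, with exact permutation p = 0.0625, the smallest of 16 arrangements. With a library left out they ranged over -0.34 to -0.29 and 0.51 to 0.85; without either CM +Dox CHD7 library the exact p was 0.143, the smallest of 7. The block, on replicate numbers whose pairing is not known, changed no other call. With a library left out, the doxycycline difference of differences ranged over -21.9 to -1.52 points, the extremes being without CHD7 CM -Dox replicate 1 and replicate 2. With equal list length it was -24.0 points (exact permutation p = 0.278). The difference between sites kept in either replicate was 0.03 to 2.23 points with a library left out, -13.3 with the pooled median (exact p = 0.0714) and -0.80 when a CHD7 peak had to cover 0.5 of the shorter interval. Adjusted p-values cannot fall far in a design with 2 CM +Dox libraries. Calls depend on unknown depth and unequal thresholds.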
